A study of Homo sapiens with 4 samples.

Results

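The genes that regulate the tumour suppressor p53, or are switched on by it, were examined in HCT116 cells grown as monolayers or as multicellular spheroids (MCS). A list of 30 such genes was used, grouped by what their products do. A probe set on the array counted for a gene only if the platform annotation gave it that symbol and no other, and the probe set with the highest mean over the arrays represented the gene. This gave a probe set for 28 of the 30 genes, out of 19775 genes named in the same way. No probe set was listed for FDXR, a mitochondrial electron transfer enzyme, or for BTG2, a growth inhibitor. The gene of p53 itself is not on the list and was not analysed here.

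HCT116 is an established human colon carcinoma line. RNA came from 2 independent monolayer cultures and 2 independent spheroid cultures of these cells, none of them treated, and each culture was hybridised to its own array, so n = 2 per group throughout. Spheroids were produced from cell suspensions in wells coated against attachment, and they hold both outer cells and a core with little oxygen. An array reads the average over all cells of a culture, so a smaller share of cells carrying a transcript and less transcript per cell cannot be told apart.

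p53 is a transcription factor that is held at a low level by the ubiquitin ligase MDM2 and its relative MDM4, and it accumulates when cells meet DNA damage or other stress. It then binds a sequence made of a pair of adjoining 10-base units and switches on genes that halt the cell cycle, repair DNA, change metabolism or kill the cell. MDM2 is among these targets, which closes a feedback loop. Several of the targets also answer to other stress factors, so their transcripts are not a readout of p53 alone. HCT116 cells are known for a p53 that can still bind DNA.

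Promoter sequences were read for these genes because the p53 sequence is what defines many of the targets. RefSeq windows (GRCh38.p14) from 250 bases before to 50 bases after a transcript start were listed for 24 of the 30 genes, and none for FBXO22, GADD45A, TNFRSF10B, TNFRSF10C, TP53INP1 and PHLDA3. The p53 consensus of 20 bases reads the same on both strands. Matches had to keep its central C and G in each 10-base unit and could differ at no more than 3 other positions. Such a match was found for 7 of the 24 genes and for 1.37% of all 27305 genes with a window. With no more than 2 differences it was found for 4 of the 24 genes and 0.359% of all genes. The windows that hold it are given for the 6 genes that had a probe set, from their own strand, with the match in capitals and no transcribed base beyond the match.
GDF15, chr19:18386186-18386205, + strand, 3 differences, first base 29 bases into the transcript: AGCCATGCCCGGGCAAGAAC
AEN, chr15:88621266-88621339, + strand, 2 differences: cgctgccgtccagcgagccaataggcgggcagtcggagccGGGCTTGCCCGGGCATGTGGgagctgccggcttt
MDM2, chr12:68808883-68808982, + strand, 2 differences: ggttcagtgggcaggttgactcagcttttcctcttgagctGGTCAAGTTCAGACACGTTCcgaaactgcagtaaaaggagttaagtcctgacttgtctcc
FAS, chr10:88991269-88991368, + strand, 2 differences: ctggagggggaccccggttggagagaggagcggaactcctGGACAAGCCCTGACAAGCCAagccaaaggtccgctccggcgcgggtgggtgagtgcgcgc
DDB2, chr11:47214929-47214988, + strand, 1 difference: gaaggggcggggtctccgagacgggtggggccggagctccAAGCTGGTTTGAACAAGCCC
SESN1, chr6:109008989-109009077, - strand, 3 differences: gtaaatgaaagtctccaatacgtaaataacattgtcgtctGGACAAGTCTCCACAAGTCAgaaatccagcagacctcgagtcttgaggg

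These windows did not share a direction in the arrays. In the comparison described below, GDF15 rose, AEN fell, and MDM2, FAS, DDB2 and SESN1 passed the test in neither direction. The other gene with a match, FDXR, had no probe set. A match is a run of letters and not evidence that p53 sits there, and sites further from a start lie outside these windows.

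Signals are the deposited MAS5 values in linear units, and every array had a trimmed mean of 500.1. The arrays of a group correlated across genes at 0.979 to 0.984, and arrays of different groups at 0.889 to 0.902. Differences are spheroid minus monolayer on the log2(signal + 32) scale, given with their standard error, and folds are on this scale. A gene was tested if its mean over the 4 arrays exceeded 300 units, and it was said to rise or fall if its limma p-value, adjusted with the Benjamini-Hochberg method over all 8721 genes tested, was under 0.05. The Bacillus control transcripts (dap, lys, phe and thr), which are commonly spiked into RNA before labelling, were 1.82-fold brighter on the spheroid arrays than on the monolayer arrays. When arrays were scaled to the 24 probe sets of these controls (spike-in scaling), the median of all genes moved from −0.03 to −0.87 on the log2 scale, so every rise below is relative to the average of the array. The 18 probe sets of the E. coli and P1 cre controls, which are commonly added at hybridisation, differed by 0.12.

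Epithelial markers were bright in both culture types. Of the 6 colon epithelial markers examined, EPCAM, CDH1, KRT8, KRT18 and KRT19 read 1213 units or more on every array, whereas CDX2, an intestinal transcription factor, read between 17.0 and 147. They were not all level: CDH1 (3.31-fold, adjusted p = 4.15e-05) and KRT19 (1.73-fold, adjusted p = 2.65e-04) rose in spheroids. KRT8 was lower in both spheroid arrays but not called (adjusted p = 0.0534), and EPCAM and KRT18 overlapped. None of the 8 leukocyte, endothelial and fibroblast markers exceeded 199 units on any array except COL1A1, a collagen chain. It read 869 and 658 on the monolayer arrays, against 2222 and 2659 on the spheroid arrays. The 3 fibroblast markers summed to between 737 and 967 units in monolayers and between 2322 and 2711 in spheroids, nearly all of it COL1A1, while COL1A2 and DCN stayed at 78.2 or below. The part of COL1A1-expressing cells in the results below was not tested.

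Among the 26 tested genes 10 rose and 4 fell. The 10 that rose were TP53INP1, GDF15, GADD45A, PLK2, PERP, TNFRSF10B, CCNG1, ZMAT3, TP53I3 and XPC, and the 4 that fell were EI24, AEN, TIGAR and TRIAP1. Rises thus covered 38.5% of the tested list, beside 19.0% of all genes tested, and falls covered 15.4%, beside 20.6%. Among the rises, TP53INP1 passed the filter only through its spheroid arrays. The median difference of the tested list was 0.32, and that of all genes was −0.03. Both spheroid arrays were above both monolayer arrays for 14 of the 26 genes and below them for 5, beside 33.4% and 36.6% of all genes. For the remaining 7 genes the groups overlapped. With spike-in scaling the direction of the list turned, with a median of −0.49. Under that scaling 2 of its genes rose (GDF15 and TP53INP1) and 7 fell (AEN, EI24, FBXO22, MDM2, PPM1D, TIGAR and TRIAP1), beside 2.10% and 45.8% of all genes.

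**Figure D1:**
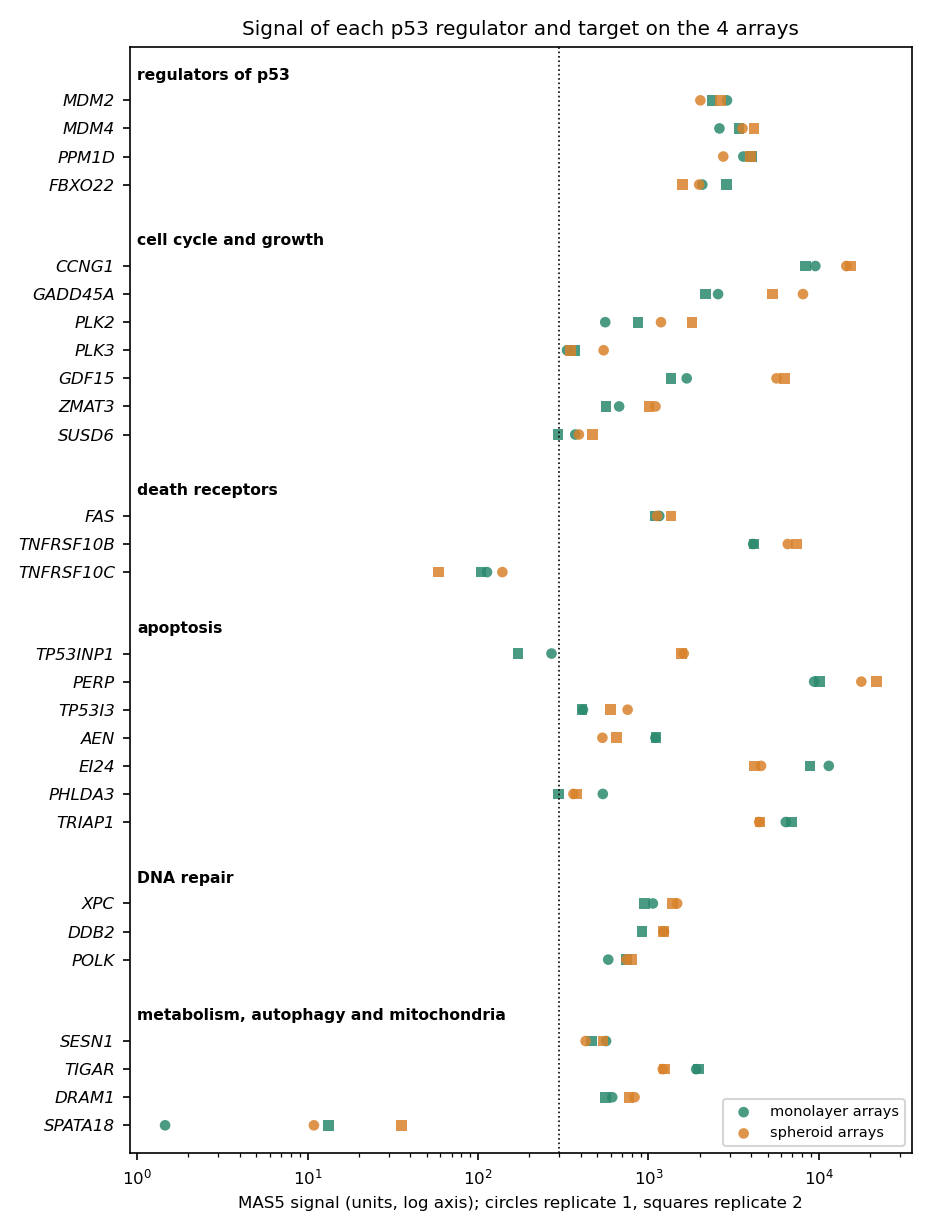
MAS5 signal (log axis, linear units) of the 28 genes with a probe set on each array, by role; green marks monolayer and orange spheroid arrays, circles replicate 1 and squares replicate 2, and the dotted line is the filter at 300 units. The clearest gap between the groups is that of TP53INP1, at 172 and 270 in monolayers and 1569 and 1611 in spheroids. TP53INP1 passed the filter only through its spheroid arrays. MDM2, PPM1D and FAS have mixed arrays.

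The genes that hold p53 in check did not pass the test in either direction. They were MDM2, MDM4, PPM1D and FBXO22, with a median difference of −0.19. MDM2, the ligase that marks p53 for degradation, read 2890 and 2358 in monolayers and 2017 and 2637 in spheroids. Its arrays overlapped, and its difference was −0.18 ± 0.18 (adjusted p = 0.467), with a 95% interval from −0.57 to 0.21. PPM1D encodes a phosphatase that turns off p53 and the kinases above it. Its signals of 3602 and 4037 in monolayers and 2748 and 3969 in spheroids also overlapped, with a difference of −0.21 ± 0.18 (adjusted p = 0.392; 95% interval −0.59 to 0.18). 

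The groups did not overlap for MDM4 and FBXO22. Of all genes tested, 33.4% had both spheroid arrays above both monolayer arrays, and 36.6% had them below. MDM4, which binds p53 and blocks its activity, read 2610 and 3403 in monolayers and 3566 and 4161 in spheroids. The lower spheroid array was only slightly above the higher monolayer array, and the difference of 0.37 ± 0.17 missed the threshold (adjusted p = 0.102; 95% interval 0.00 to 0.73). FBXO22, the substrate-binding part of a ubiquitin ligase, moved the other way, from 2070 and 2861 to 1985 and 1579. Here too the gap between the nearest arrays was small, and the difference of −0.45 ± 0.19 was not called (adjusted p = 0.0827; 95% interval −0.87 to −0.03). MDM4 was called without monolayer replicate 2 (0.56, adjusted p = 0.0354) and was at 0.18 without monolayer replicate 1. FBXO22 was called without monolayer replicate 1 (−0.68, adjusted p = 0.0174) and was at −0.22 without monolayer replicate 2. Calls also depended on the scaling. With spike-in scaling MDM2 (−1.03, adjusted p = 0.0307), PPM1D (−1.06, adjusted p = 0.0251) and FBXO22 (−1.30, adjusted p = 0.00663) fell, and MDM4 turned to −0.49. Under that scaling 45.8% of all genes fell, and the median of all genes was −0.87.

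Targets that act on the cell cycle and growth held 5 of the 10 rises and no fall. Of 7 tested genes GDF15, GADD45A, PLK2, CCNG1 and ZMAT3 rose, PLK3 and SUSD6 were not called, and the median was 0.74. Rises made up 71.4% of this group, beside 19.0% of all genes tested, and falls 0%, beside 20.6%. With 7 genes these shares are coarse, and the difference between roles was not tested. With spike-in scaling only GDF15 of this group was called. GADD45A was at 0.61 (adjusted p = 0.192), PLK2 at 0.20 (adjusted p = 0.683), CCNG1 at −0.12 and ZMAT3 at −0.09.

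GDF15, a secreted cytokine of the TGF-beta family that stressed cells release, stood at 1677 and 1354 in monolayers and at 5641 and 6295 in spheroids. Every spheroid array was thus more than 3-fold above every monolayer array, and the difference was 1.96 ± 0.16 (3.89-fold, adjusted p = 3.33e-06). Its rise was also called with spike-in scaling (1.11, adjusted p = 0.0196). GADD45A, which binds cyclin-dependent kinase complexes and PCNA in damaged or arrested cells, went from 2562 and 2162 to 8067 and 5344. Its spheroid arrays differed more from each other than its monolayer arrays did, and the lower of them was still above both (1.47 ± 0.19, 2.77-fold, adjusted p = 1.00e-04).

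PLK2, a polo-like kinase with a role in stress checkpoints, read 558 and 867 in monolayers and 1185 and 1798 in spheroids. The arrays within each culture type were well apart, so the error of its difference was larger (1.03 ± 0.25, 2.05-fold, adjusted p = 0.00612). Without spheroid replicate 2 the difference was 0.74 and the call was lost (adjusted p = 0.0670). Its relative PLK3 was dim, at 333 and 367 in monolayers and 546 and 350 in spheroids. Only spheroid replicate 1 stood out, and PLK3 was not called (0.30 ± 0.27, adjusted p = 0.402).

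CCNG1, which encodes cyclin G1, a partner of protein phosphatase 2A, was already bright in monolayers at 9533 and 8336 and reached 14493 and 15296 in spheroids. The groups were far apart relative to their spread (0.74 ± 0.12, 1.67-fold, adjusted p = 5.72e-04). ZMAT3, an RNA-binding zinc finger protein that acts on splicing, rose from 673 and 563 to 1100 and 1006 (0.74 ± 0.20, adjusted p = 0.0116). Its call was lost without monolayer replicate 2 (0.62, adjusted p = 0.0865) or without spheroid replicate 1 (0.68, adjusted p = 0.0591). SUSD6, a membrane protein with a growth-suppressing role, lay near the filter. Its signals were 372 and 295 against 391 and 468 in spheroids, which did not pass the test (0.34 ± 0.25, adjusted p = 0.310).

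**Figure D2:**
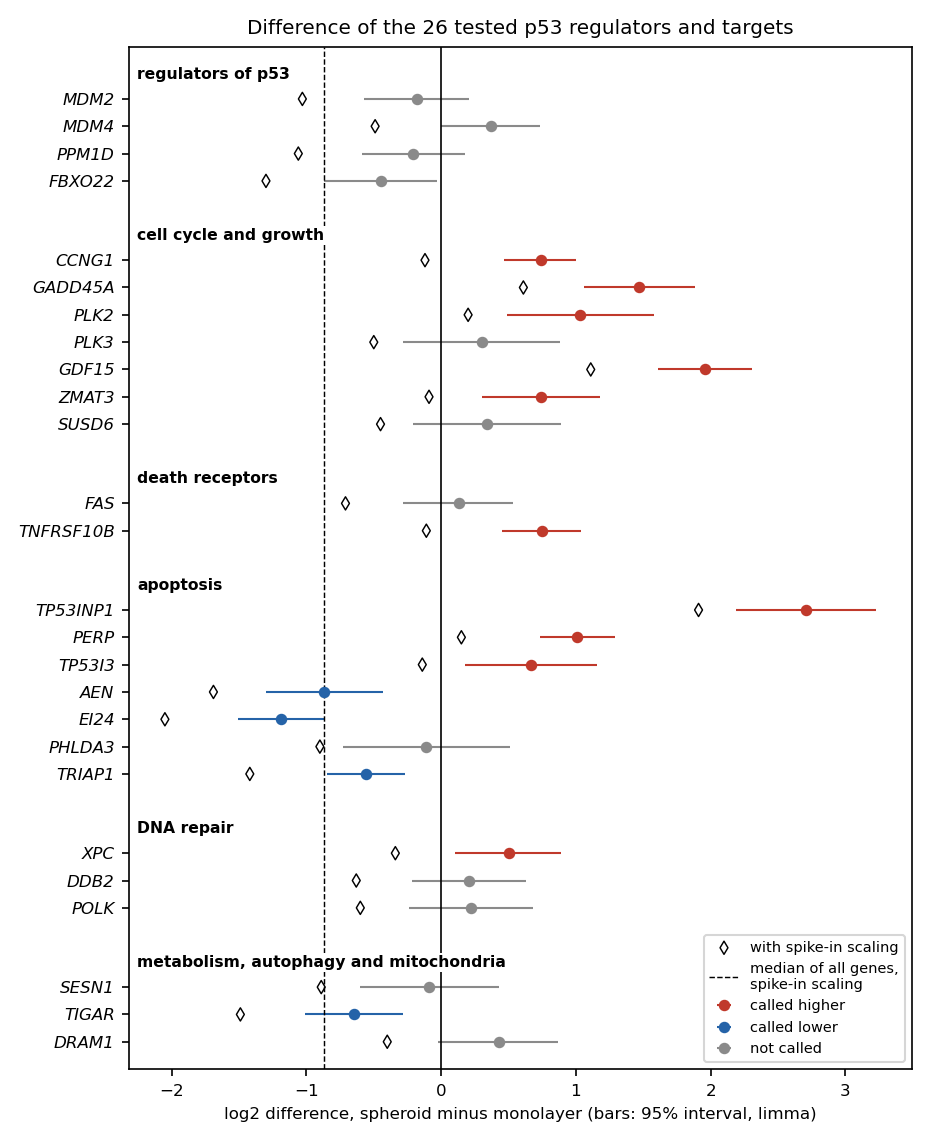
Log2 difference (spheroid minus monolayer) of the 26 tested genes with 95% intervals from limma, by role; red points rose, blue fell, grey were not called, and open diamonds are the differences with spike-in scaling, whose median over all genes is the dashed line at −0.87. Cell cycle and growth genes hold 5 rises and no fall among 7 tested, and apoptosis genes 3 rises and 3 falls among 7. Of all genes tested 19.0% rose and 20.6% fell. With spike-in scaling GDF15 at 1.11 and TP53INP1 at 1.91 are the genes still called higher.

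Of the death receptors, TNFRSF10B rose and FAS was not called. TNFRSF10B, which encodes DR5, a receptor that carries the TRAIL signal into the cell, read 4117 and 4153 in monolayers. In spheroids its signals were 6568 and 7401, well above both monolayer arrays (0.75 ± 0.14, adjusted p = 0.00103), but with spike-in scaling it was at −0.11. The other signalling receptor of TRAIL, TNFRSF10A, stands on the second list described below and was not called (−0.11 ± 0.18, adjusted p = 0.645). FAS read 1158 and 1097 in monolayers and 1125 and 1354 in spheroids. Its groups overlapped (0.13 ± 0.19, adjusted p = 0.618; 95% interval −0.28 to 0.53). TNFRSF10C, a decoy that binds TRAIL and passes on no signal, was too dim to test, at 113 and 104 in monolayers and 139 and 58.6 in spheroids.

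The apoptosis genes moved in both directions. Of 7 tested genes TP53INP1, PERP and TP53I3 rose, EI24, AEN and TRIAP1 fell, PHLDA3 was not called, and the median was −0.11. Rises and falls each made up 42.9% of this group, beside 19.0% and 20.6% of all genes tested. With spike-in scaling, which moves genes downward as a whole, TP53INP1 alone of the 3 rises was called.

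TP53INP1, a stress protein that promotes p53-driven cell death and autophagy, showed the largest difference on the list. Monolayers gave 270 and 172 units, under the filter level, and spheroids gave 1611 and 1569. It therefore passed the filter only through the arrays where it is high, and its rise and its rank have to be read with that. The difference was 2.71 ± 0.24 (6.54-fold, adjusted p = 5.56e-06). Removing the filter cannot change the difference itself, and the adjusted p was then 7.90e-04. With spike-in scaling the difference was 1.91 (adjusted p = 1.01e-04). PERP, a membrane protein of desmosomes that also takes part in p53-dependent death, was bright in both culture types. Its signals went from 9380 and 10076 to 17746 and 21758 (1.01 ± 0.13, adjusted p = 8.83e-05). With spike-in scaling the difference of PERP was 0.15 and was not called (adjusted p = 0.749). TP53I3, an oxidoreductase linked to oxidative stress, rose from 413 and 408 to 755 and 598 (0.67 ± 0.23, adjusted p = 0.0337). This call was weak. Leaving out either monolayer array (0.68 and 0.66) or spheroid replicate 1 (0.51) ended it, and the difference turned to −0.14 with spike-in scaling.

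The 3 falling genes of this group were each lower in both spheroid arrays than in both monolayer arrays, as were 36.6% of all genes tested. EI24, a protein of the endoplasmic reticulum with roles in death and autophagy, read 11433 and 8855 in monolayers and 4576 and 4204 in spheroids. It was the largest fall on the list (−1.19 ± 0.15, adjusted p = 7.89e-05). AEN, a nuclease that cuts DNA in dying cells, fell from 1099 and 1105 to 537 and 649 (−0.87 ± 0.20, adjusted p = 0.00486). Its monolayer arrays were nearly equal. TRIAP1, a small mitochondrial protein that restrains rather than promotes apoptosis, went from 6394 and 6896 to 4464 and 4507 (−0.56 ± 0.13, adjusted p = 0.00526). PHLDA3, which competes with the survival kinase AKT for membrane lipids, read 540 and 297 in monolayers and 363 and 377 in spheroids. Both spheroid arrays lay between its monolayer arrays (−0.11 ± 0.29, adjusted p = 0.789).

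**Figure D3:**
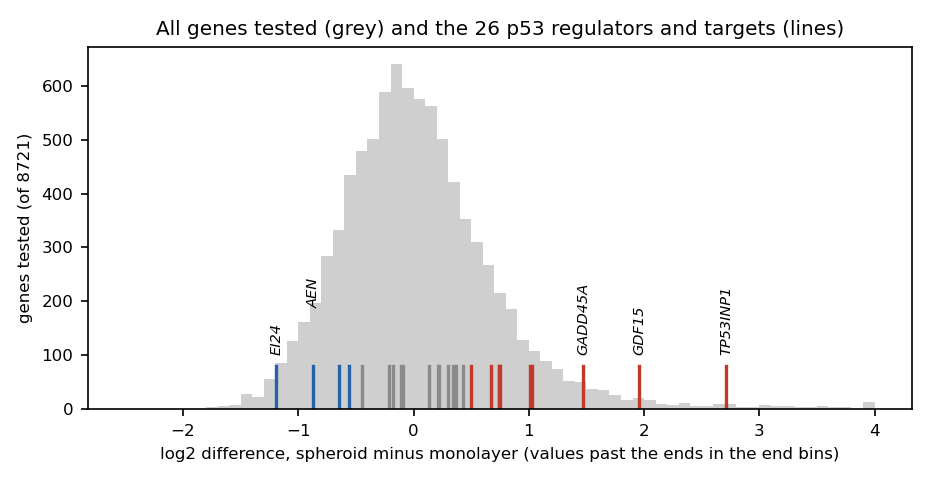
Histogram of the log2 differences (spheroid minus monolayer) of all 8721 genes tested, in grey, with the 26 p53 regulators and targets as vertical lines of fixed height; red lines rose, blue fell and grey were not called. TP53INP1 at 2.71, which passed the filter only through its spheroid arrays, and GDF15 at 1.96 lie in the right tail, and EI24 at −1.19 in the left tail.

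Of the DNA repair genes, only XPC passed the test. XPC encodes the protein that first recognises distorted DNA in nucleotide excision repair. Monolayers gave 1062 and 946 units and spheroids 1474 and 1384 (0.50 ± 0.18, adjusted p = 0.0450). The groups did not overlap, but the call was at the threshold and was lost when any of the 4 arrays was left out, with differences from 0.42 to 0.58, and it turned to −0.34 with spike-in scaling. DDB2, which works beside XPC on ultraviolet damage, read 1229 and 918 in monolayers and 1235 and 1224 in spheroids (0.21 ± 0.20, adjusted p = 0.438). Monolayer replicate 2 stood apart from the other arrays, which were nearly level. POLK, a polymerase that copies past damaged bases, read 581 and 741 in monolayers and 742 and 798 in spheroids. Monolayer replicate 2 and spheroid replicate 1 were almost equal, and POLK was not called (0.22 ± 0.21, adjusted p = 0.443).

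Among the genes of metabolism, autophagy and mitochondria, TIGAR fell and no gene rose. TIGAR encodes a phosphatase that lowers the glycolytic signal fructose-2,6-bisphosphate. It read 1906 and 1968 in monolayers and 1213 and 1239 in spheroids (−0.65 ± 0.17, adjusted p = 0.00904). The arrays of each culture type were close together, yet without monolayer replicate 2 the call was lost (−0.62, adjusted p = 0.0543). With spike-in scaling TIGAR was at −1.49 (adjusted p = 0.00202). That scaling lowers genes as a whole, with a median of all genes at −0.87, so it is no independent check of this fall. DRAM1, a lysosomal membrane protein that promotes autophagy, read 613 and 560 in monolayers and 829 and 771 in spheroids. The groups did not overlap, but the difference was not called (0.43 ± 0.21, adjusted p = 0.118). SESN1, an inhibitor of the growth kinase mTORC1, read 564 and 465 in monolayers and 428 and 540 in spheroids, with mixed arrays (−0.09 ± 0.24, adjusted p = 0.798). SPATA18, which acts in mitochondrial quality control, was not above 35.7 on any array and was not tested.

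Many genes have several probe sets, and these did not always move alike. The 28 genes had 76 probe sets, of which 43 exceeded 300 units on average. In a fit over all 14162 probe sets above that level, 16.8% rose and 17.2% fell. XPC, with 1 probe set, was not called in it (adjusted p = 0.0567). The second probe set of PERP rose as well (1.24), and that of EI24 fell as well (−0.72). For ZMAT3 a second probe set rose (0.75), whereas the other two, at 0.11 and 0.58, were not called. TNFRSF10B rests on 1 probe set, since its other tested probe sets, at 0.43 and 0.31, were not called. With the mean of all probe sets of a gene, TNFRSF10B (0.19), ZMAT3 (0.40) and PERP (0.44) were no longer called, and the differences of GDF15 and TP53INP1 shrank to 0.95 and 1.08. The probe sets averaged there include ones under the filter level. Probe sets of opposite sign, none of them called, were found for MDM2 (0.08), FBXO22 (0.15), FAS (−0.26 and −0.18) and POLK (−0.20).

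**Figure D4:**
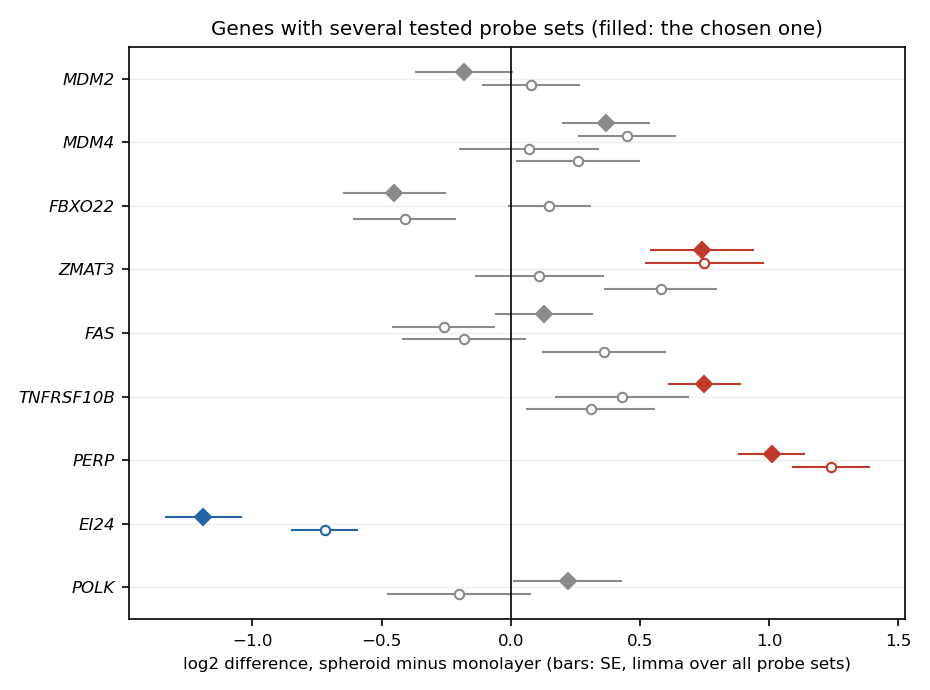
Log2 difference (spheroid minus monolayer) with standard error for each tested probe set of the 9 genes that had more than 1; filled diamonds are the probe sets used for the gene and open circles the others, red rose, blue fell and grey were not called. PERP (1.01 and 1.24) and EI24 (−1.19 and −0.72) keep their direction, while the probe sets of FAS, FBXO22, MDM2 and POLK lie on both sides of 0.

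The rest of the pathway was read from a second list of 35 genes, of which 34 had a probe set (none was listed for BBC3) and 32 were tested. Of these 7 rose and 8 fell, or 21.9% and 25.0%, close to the 19.0% and 20.6% of all genes, and their median was 0.03. Targets and upstream genes are given apart, and the difference between them was not tested. Among 19 other targets 6 rose and 3 fell, with a median of 0.33. Among 13 upstream genes 1 rose and 5 fell, with a median of −0.21. With spike-in scaling none of the 32 rose and 14 fell, when 2.10% of all genes rose and 45.8% fell.

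CDKN1A, the p21 inhibitor of cyclin-dependent kinases and the best known p53 target, read 3198 and 2134 in monolayers and 4599 and 4559 in spheroids. Both spheroid arrays were above both monolayer arrays (0.80 ± 0.18, 1.74-fold, adjusted p = 0.00440), but with spike-in scaling the difference was −0.05. It rested in part on monolayer replicate 2, without which it was 0.51 (adjusted p = 0.0430). The largest rise of the second list was that of ANKRA2, an ankyrin repeat protein, from 657 and 704 to 1345 and 1590 (1.07 ± 0.19, adjusted p = 9.55e-04). SERTAD1, a regulator of cyclin D kinases, followed with 1044 and 921 in monolayers and 1966 and 2190 in spheroids (1.06 ± 0.18, adjusted p = 6.02e-04). The hydrolase CMBL read 4027 and 4249 against 9636 and 7074 (0.99 ± 0.16, adjusted p = 4.24e-04). For all 4 genes both spheroid arrays were above both monolayer arrays, as for 33.4% of all genes tested. They were picked as called rises, so this is no further support.

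A further receptor of TRAIL, the truncated decoy TNFRSF10D, rose from 1186 and 1294 to 2031 and 2467 (0.84 ± 0.18, adjusted p = 0.00258), and was at −0.01 with spike-in scaling. Of the other rises, chosen for mention after their values were seen, PMAIP1, which encodes the BH3-only protein NOXA, was at 0.64, and ATM, the kinase that signals DNA breaks, was at 0.78. With spike-in scaling PMAIP1 was at −0.21 and ATM at −0.04. The call of ATM was also lost without a filter and with the mean of its probe sets (0.32). Its probe set carries the cross-hybridisation suffix _x_at, and without probe sets of suffix _x_at or _s_at the call was lost (0.62). The call was lost as well without monolayer replicate 1 (0.46) and without either spheroid array (0.72 and 0.84).

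The falls in the second list included checkpoint and replication genes. CHEK1, the checkpoint kinase of replication stress, went from 2782 and 2772 to 1446 and 1675 (−0.82 ± 0.16, adjusted p = 0.00179). CHEK2, which acts below ATM, went from 1286 and 1397 to 859 and 821 (−0.66 ± 0.18, adjusted p = 0.0137). PCNA, the sliding clamp of DNA replication and a p53 target, read 24854 and 21781 in monolayers and 14383 and 14441 in spheroids (−0.69 ± 0.11, adjusted p = 5.39e-04). In all 3 genes both spheroid arrays were below both monolayer arrays, as for 36.6% of all genes tested. They were picked as called falls, so this is no further support.

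DAXX, a histone chaperone that also binds MDM2, showed the largest fall of this list, from 1457 and 976 to 650 and 628 (−0.87 ± 0.22, adjusted p = 0.00822). Its monolayer arrays stood apart by about the same ratio as the nearer one did from the spheroid arrays, and without monolayer replicate 1 the difference was −0.59 and not called. RCHY1, another ubiquitin ligase for p53, fell from 3990 and 4117 to 2431 and 2904 (−0.60 ± 0.15, adjusted p = 0.00787). Without spheroid replicate 1 the call of RCHY1 was lost (−0.48), as was that of CHEK2 without monolayer replicate 2 (−0.60). The remaining falls, mentioned after their values were seen, were those of ASCC3 (−0.56), USP7 (−0.45) and BLOC1S2 (−0.39). When the mean of all probe sets of a gene was used, CHEK1 (−0.14), RCHY1 (−0.23), DAXX (−0.45), CMBL (0.41) and TNFRSF10D (0.68) were not called.

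**Figure D5:**
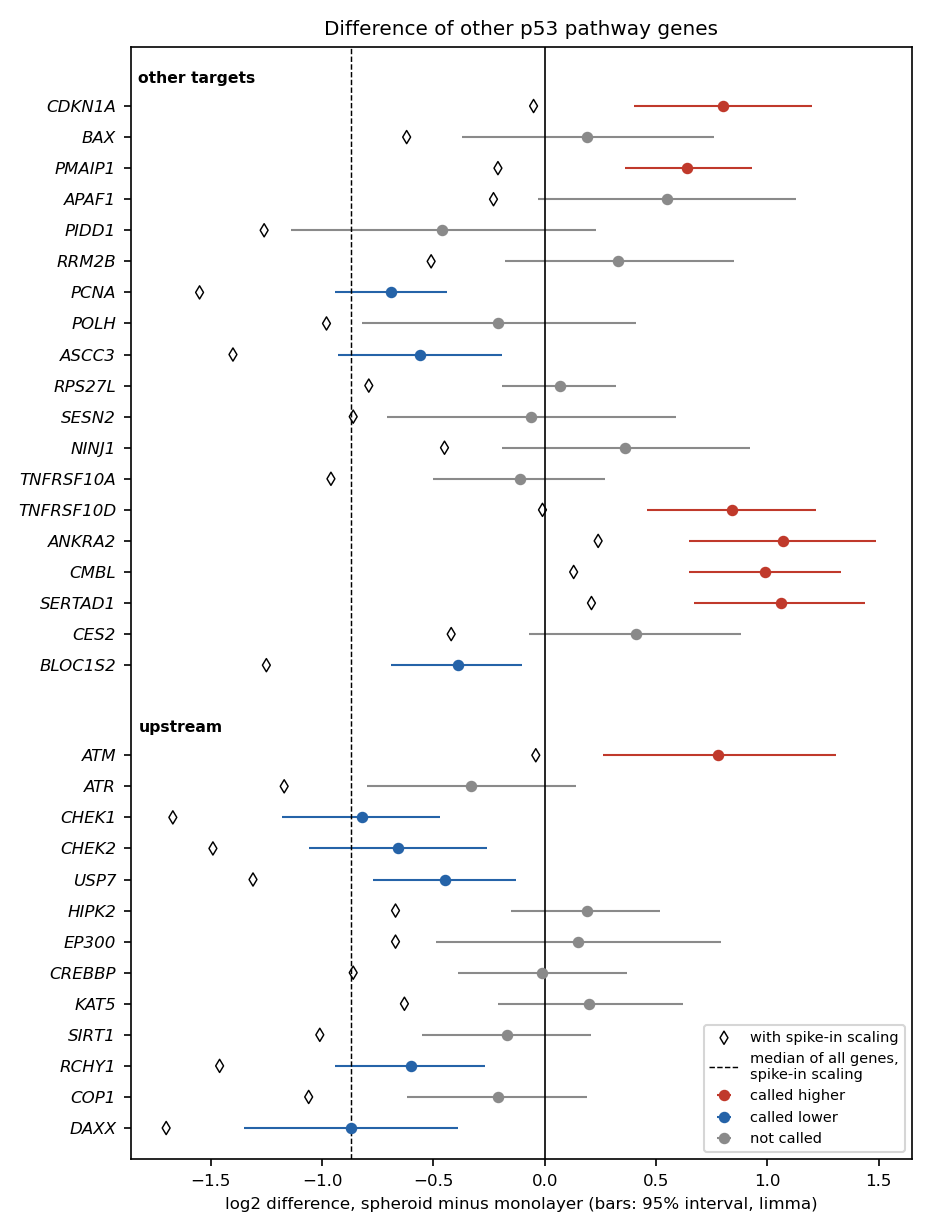
Log2 difference (spheroid minus monolayer) with 95% limma intervals for the 32 tested genes of the second list, other targets above and upstream genes below; red rose, blue fell, grey were not called, and open diamonds are spike-in scaled, with their median over all genes as the dashed line. CDKN1A at 0.80 and ANKRA2 at 1.07 are among the rises, CHEK1 at −0.82 and DAXX at −0.87 among the falls, and no gene rises with spike-in scaling.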

How the data were processed

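The study compared untreated monolayer and spheroid cultures of HCT116 cells on Affymetrix Genome U133 Plus 2.0 arrays. MAS5 normalisation was done by the authors, who deposited a linear intensity for each probe set. Its version is not given in the labels or methods. All arrays were scaled to the same trimmed mean of 500.1 (lowest and highest 2% left out), so a change in total mRNA per cell is not seen. The number of arrays limits the precision.

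Of 54675 probe sets, 62 were controls, 41091 had 1 symbol in the platform annotation, 1801 had several and 11721 were not listed. Probe sets with several symbols were left out. Matching to RefSeq (GRCh38.p14) changed 0 symbols. The probe set of highest mean stood for each gene, and genes with a mean of 300 units or less were not tested (TNFRSF10C and SPATA18 here). The dimmest tested genes were SUSD6 (mean 381), PHLDA3 (394) and PLK3 (399), and TNFRSF10C (104) was the first below the filter. A gene bright in spheroids alone could pass.

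Values were analysed as log2(signal + 32), which understates changes of dim genes, with limma 3.58.1 in R 4.3.3 (lmFit and eBayes with an intensity trend, two-sided, Benjamini-Hochberg over 8721 genes). Residual and prior degrees of freedom were 2 and 10.5, and standard errors had a median of 0.193. The script was tested on simulated data. The ACTB 3′ over 5′ control ratio was 2.34 to 2.64 in monolayers and 2.82 to 3.00 in spheroids, and its part in the results was not tested.

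Alternatives were other constants, filters and scalings, the mean of a gene's probe sets, probe sets without cross-hybridisation suffixes, no intensity trend, a replicate block, each array left out, and Student's t-test, which the methods name for other assays. All 30 genes of the list were given by name. From the second list, the 5 largest called differences in each direction and CDKN1A were named by rule. The remaining called genes of that list and TNFRSF10A were named outside this rule. The genes, lists and settings were chosen with earlier results of these data known.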

Additional observations from a re-analysis of the deposited data

How the results depend on the processing

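The precision of every call is limited by 2 cultures per group. On the list of p53 regulators and targets 10 genes rose and 4 fell with constants of 16 or 64 and without the intensity trend. Of 8721 genes 1650 rose and 1796 fell with a constant of 16, 1667 and 1800 with 64, and 1521 and 1526 without the trend. Without a filter 8 of 28 rose and 4 fell, beside 1336 and 1318 of all 19775 genes. With quantile normalisation 8 rose and 4 fell (median 0.16), beside 1514 and 1782 of 8721. A filter at 100 units gave 9 and 4 of 27, beside 1903 and 1774 of 11297. The mean of a gene's probe sets gave 7 and 4 (median 0.27), beside 1236 and 1248 of 8721 genes. It turned MDM2 to 0.42, POLK to −0.08 and USP7 to 0.16, and reduced GDF15 to 0.95 and TP53INP1 to 1.08. In the second list it left 4 falls. Without probe sets of suffix _x_at or _s_at, 17 of the genes were tested and 6 rose and 2 fell. Beside them 1118 and 1114 of 6094 genes rose and fell, and the second list held 3 rises and 5 falls. The methods' t-test called 0 in either direction in both lists after adjustment, but 9 rises and 4 falls of the first list and 5 and 4 of the second at an unadjusted p under 0.05. These are 34.6% and 15.4% of the first list and 15.6% and 12.5% of the second, beside 14.0% and 16.4% of all genes. After adjustment it called 1 rise and 1 fall over all genes.

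Spike-in scaling turned the direction of many genes. It gave 2 rises and 7 falls (median −0.49) in the first list and 0 and 14 in the second, and turned MDM4 (−0.49), CCNG1 (−0.12), PLK3 (−0.50), ZMAT3 (−0.09), SUSD6 (−0.45), FAS (−0.71), TNFRSF10B (−0.11), TP53I3 (−0.14), XPC (−0.34), DDB2 (−0.63), POLK (−0.60), DRAM1 (−0.40), ATM (−0.04), CDKN1A (−0.05), PMAIP1 (−0.21) and TNFRSF10D (−0.01). The controls differed by 0.559 on the log2 scale between the spheroid arrays themselves, and why they were brighter in spheroids was not tested.

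Leaving out 1 array, with the lone array of a group assumed to vary like the other group, gave a median difference of the first list from 0.24 to 0.36. The range held both signs or reached 0 for MDM2 (−0.37 to 0.01), PPM1D (−0.47 to 0.06), PHLDA3 (−0.51 to 0.29), SESN1 (−0.24 to 0.07), FAS (0.00 to 0.26), PLK3 (0.00 to 0.60) and DDB2 (0.00 to 0.41). Without a monolayer array limma estimated an unlimited prior, so a gene's own spread had no weight in those fits. Calls over all genes became fewer when any array was left out. Of 14 calls, 9 were kept without any 1 array (CCNG1, GADD45A, GDF15, TNFRSF10B, TP53INP1, PERP, AEN, EI24 and TRIAP1). GDF15, TP53INP1, AEN, EI24 and TRIAP1 were called under every alternative that tested them except the t-test. For the 3 falls among these, spike-in scaling is no independent check, since it lowers all genes. GDF15, AEN and EI24 were not tested without probe sets of suffix _x_at or _s_at, and TP53INP1 passed the filter only through its spheroid arrays.

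The replicate numbers are shared between culture types, but nothing says that they pair the cultures. The differences between replicates 1 and 2 correlated across genes at 0.323 between the culture types. With the replicate block 11 genes of the list rose and 5 fell. MDM4 (0.37, adjusted p = 0.0216) and FBXO22 (−0.45, adjusted p = 0.0373) were added to the calls. Over all 8721 genes, rises went from 1656 to 2114 and falls from 1799 to 2301, so calls became more frequent over all genes as well.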

Other observations

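Some probe sets under the filter were dim on both monolayer arrays and brighter on both spheroid arrays, and were not tested. The 3 probe sets for the Bacillus trp control, which were dim on every array, read between 4.47 and 35.0. For the TRAIL decoy receptor TNFRSF10C, a probe set read 17.0 and 8.25 units in monolayers against 116 and 98.9 in spheroids, and another read 34.3 and 14.7 against 115 and 111. A probe set shared with LOC254896 read 24.26 and 15.88 against 170.6 and 120.1. These 3 probe sets thus lay within the range of the trp control in monolayers and above it in spheroids, while the probe set used for TNFRSF10C overlapped between the groups. For the kinase PLK3, a dim probe set read 78.2 and 68.1 units in monolayers against 423 and 239 in spheroids, whereas the probe set used for the gene overlapped. A dim probe set of MDM2 read 56.0 and 77.3 units in monolayers against 147 and 147 in spheroids. The other probe set shared with LOC254896 read 125.7 and 46.03 against 154.5 and 132.1. Some went the other way, as for PPM1D (389 and 285 against 196 and 264) and MDM4 (216 and 80.2 against 49.8 and 57.8). Probe sets were picked for mention after their values were seen.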
